A study of Oryza sativa Japonica Group with 6 samples.

Results

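The protein phosphatase 2C (PP2C) and stress-activated protein kinase (SAPK) genes of rice were examined in roots of seedlings deprived of nitrogen for 1 h. A gene was taken as a member when its symbol or a synonym in the RefSeq gene table, without a leading Os, was PP2C or SAPK followed by digits. This names 60 phosphatase and 10 kinase genes, and 55 and 10 of them had a probe set tied to that gene alone, 65 of the 17905 genes measured. PP2C41, PP2C49, PP2C50, PP2C65 and PP2C77 had no such probe set and are not analysed here. PP2C46, which the study picked from these arrays and reported as lower in −N, is not among the symbols and synonyms of that table. It is not analysed here either, so statements on the phosphatases cover the 55 measured members. The seedlings, of japonica rice TNG67, were 10 days old and had been raised in hydroponic solution with ammonium nitrate. Roots after 1 h without ammonium nitrate (−N) were compared with roots kept supplied with it (+N), with 3 biological replicates of each. Each RNA sample was hybridised to a GeneChip Rice Genome Array, on which several short probes make up a probe set whose brightness is summarised as an intensity. The labels place both groups in fresh solution for 1 h, while the methods describe the transfer for −N only, and a label of +N replicate 3 gives 0.5 h.

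Type 2C phosphatases remove phosphate from serine and threonine residues and form one of the largest phosphatase families of plants. Those of clade A act in the core pathway of the hormone abscisic acid (ABA). In the absence of the hormone they hold kinases of the SnRK2 family, which in rice are the SAPKs, in an inactive state. Receptors of the PYL family bind ABA together with these phosphatases and block them, and the released kinases then phosphorylate bZIP transcription factors and ion channels. Genes of clade A phosphatases are themselves known to be induced by ABA, which makes them part of a feedback loop. The comparison asks how the genes of both families stood after 1 h without nitrogen.

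The precision was limited by 3 arrays in a group, and nothing used here says whether the replicates came from separate cultures. The p-values therefore reflect only how these samples varied, which may be technical. Arrays of equal replicate number shared their deviations from the group means, with correlations between 0.653 and 0.785, so each −N array was also set against the +N array of its own number. Replicate 1 of both treatments stood apart, with upper quartiles of intensity of 131 in −N and 137 in +N, against 167 to 180 on the other arrays. According to their titles, −N replicates 1 and 2 were reanalysed. The summed intensity of 5 root markers was 16140 to 20390 in −N and 17200 to 23270 in +N, nearly all of it from the silicon transporter genes LSI1 and LSI2, with log2 fold changes of −0.16 each for −N over +N. The others were SHR1 (0.20), SCR1 (0.16), which was dim at 14.3 to 28.2 in −N and 13.7 to 23.2 in +N, and AKT1 (0.01). Of 3 green-shoot markers, RBCS and CAB2R were measured, with log2 fold changes of −1.25 and −0.71 for −N over +N and a summed intensity of 6048 to 10590 in −N and 12010 to 18310 in +N, and the part of such tissue in the values below was not tested. Over all genes, limma called 4 higher and 15 lower in −N at an adjusted p of 0.05. These counts were 2 and 22 after quantile normalization, 38 and 73 when the replicate number was fitted as a block, and 10 and 14 without −N replicate 1, while none was called without any other single array. In whole roots, fewer cells of a type and less RNA per cell cannot be told apart.

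The phosphatase genes lay mostly higher in −N than in +N, most of them by a small amount. Their log2 fold changes, given from here on as log2 ratios of −N to +N, had a median of 0.21, against 0.03 over all genes, and 39 of the 55 were positive (70.9%, against 55.7% of all genes). In all 3 replicate pairs, 28 phosphatase genes were higher in −N (50.9%, against 26.5% of all genes) and 8 were lower (14.5%, against 17.5%). No phosphatase gene passed an adjusted p of 0.05 in limma, where the calls made up 0.0223% of all genes for higher and 0.0838% for lower. At an unadjusted p under 0.05, 7 were higher (12.7%, against 2.17% of all genes) and 1 was lower (1.82%, against 3.08%). With the block, 1 phosphatase gene, PP2C39, passed the adjusted threshold and was lower, against 0.408% of all genes, and none was higher, against 0.212%. By size alone, 7 were at least 1.5-fold higher (3.14% of all genes) and 1 was at least 1.5-fold lower (4.26% of all genes). At an unadjusted p under 0.05 the block gave 21 higher (12.8% of all genes) and 2 lower (7.89% of all genes). The lower genes were PP2C39 and PP2C31, the second named after its values were seen. PP2C31 had intensities of 13.6, 31.2 and 25.7 in −N, and 19.0, 44.2 and 37.2 in +N, and a log2 ratio of −0.51 (adjusted p = 1, and 0.0950 with the block). It was lower in −N in each pair, but its groups overlapped. The lowest −N array lay above the highest +N array for 9 phosphatase genes (16.4%, against 3.98% of all genes), the highest −N array lay below the lowest +N array for 1 (1.82%, against 5.32%), and the groups of the other 45 overlapped. The median over the pairs was 0.14, 0.21 and 0.29 for replicates 1, 2 and 3, against 0.00, 0.05 and 0.06 for all genes. Leaving out 1 array moved the median of the phosphatases and that of all genes together. Without +N replicate 1 these were 0.08 and −0.09, without −N replicate 1 they were 0.38 and 0.17, and without −N replicates 2 and 3 in turn they were 0.13 and −0.06, and 0.11 and −0.02. The number of higher phosphatase genes at an unadjusted p under 0.05 ran from 2 without +N replicate 1 or −N replicate 2 to 13 without −N replicate 1, and was 3 without −N replicate 3 and 4 without +N replicate 2 or 3.

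**Figure D1:**
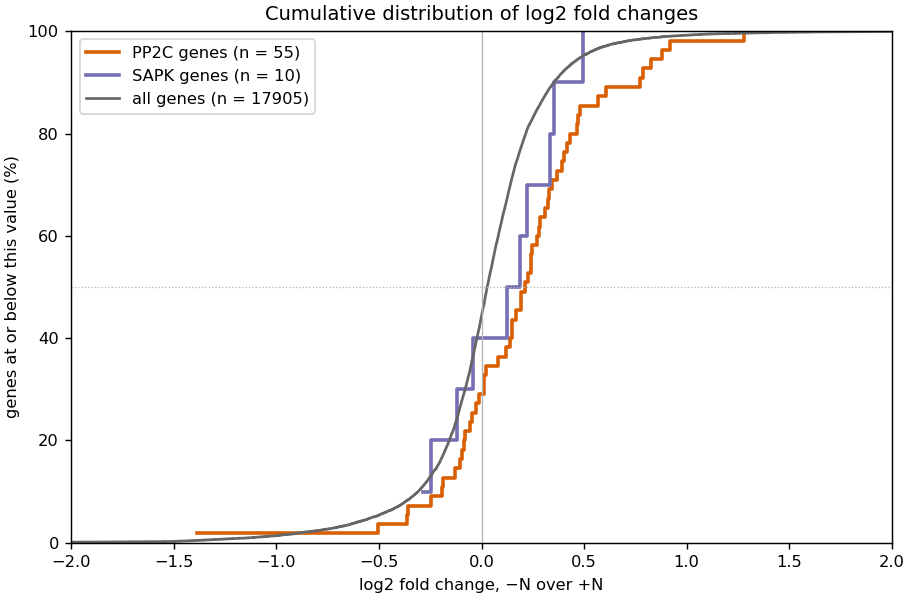
Cumulative share of genes (y axis, %) by log2 ratio of −N over +N (x axis) for 55 PP2C genes, 10 SAPK genes and all 17905 genes. The PP2C curve lies to the right of all genes over most of its length, with a median of 0.21 against 0.03, and the SAPK curve crosses that of all genes.

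The plot of replicate pairs shows every member with its 3 differences. Of the 55 phosphatase genes measured, PP2C39 was at least 1.5-fold lower and 7 were at least 1.5-fold higher, while the kinase genes stayed between −0.29 and 0.49 as means of the pairs.

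**Figure D2:**
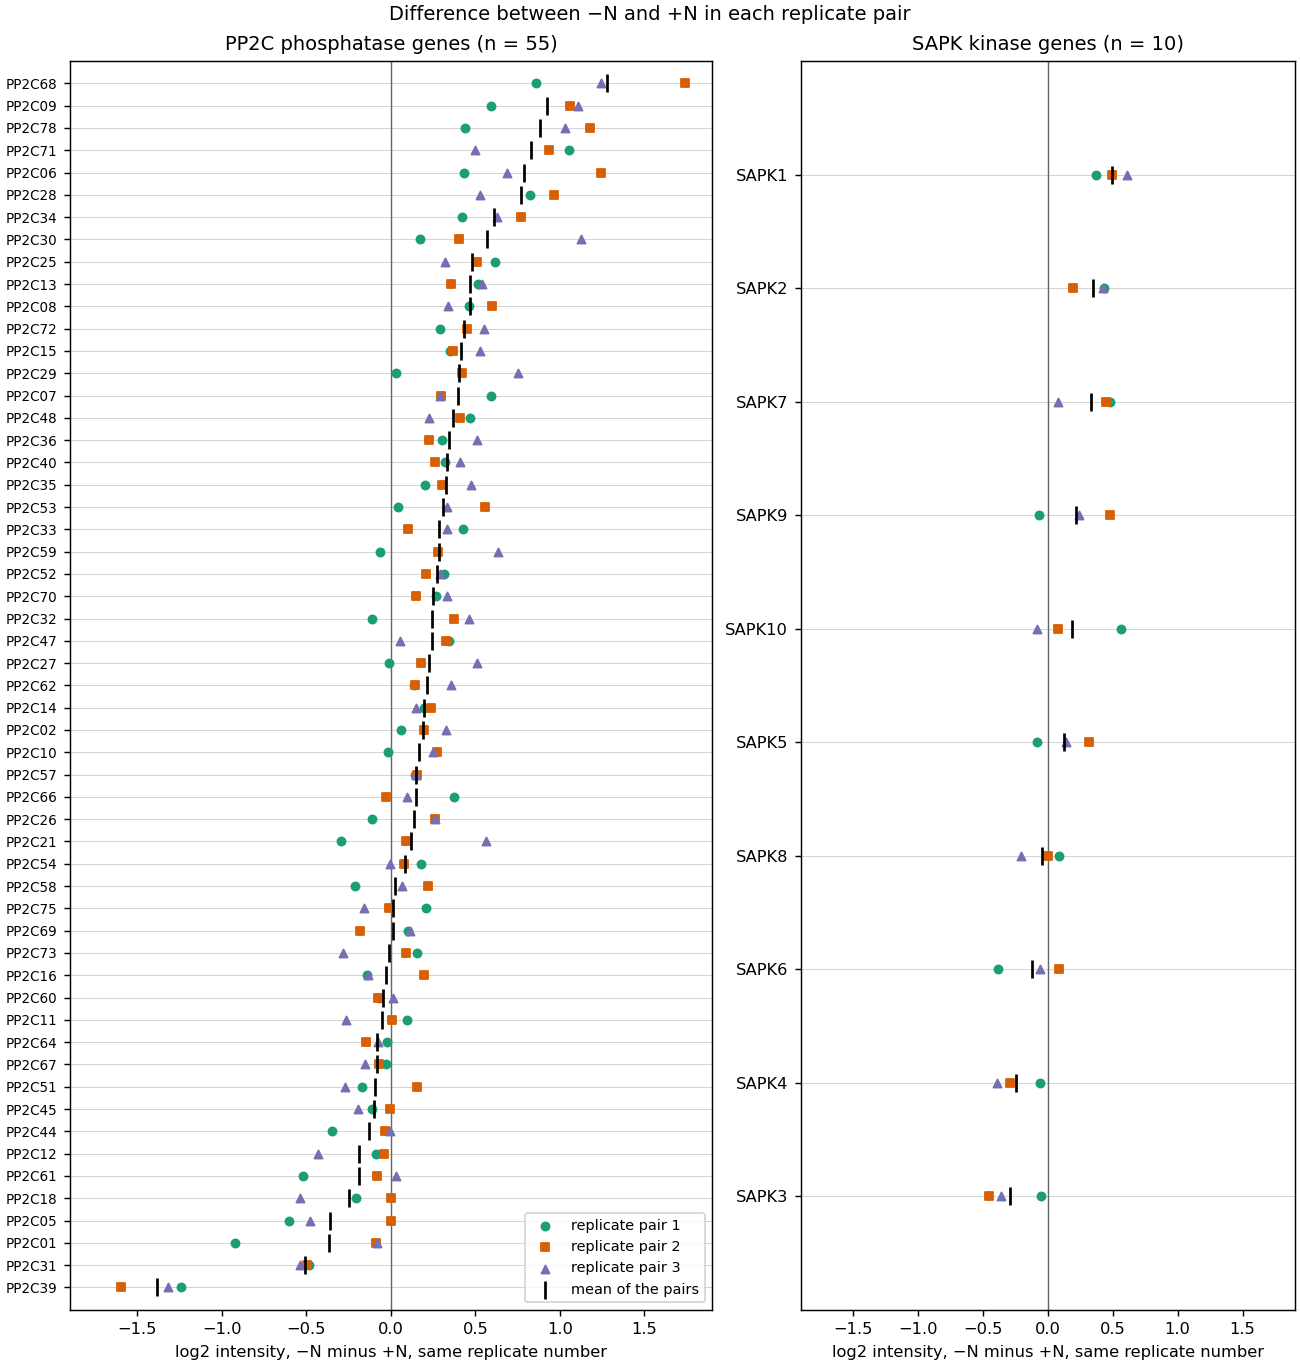
Difference in log2 intensity between −N and +N arrays of the same replicate number (x axis) for each PP2C gene on the left and each SAPK gene on the right, sorted by the mean of the 3 pairs (black bar). The points of 28 PP2C genes and 3 SAPK genes lie wholly above 0, and those of 8 PP2C genes and 2 SAPK genes wholly below it.

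The clade A phosphatases, which act as ABA co-receptors, held the largest positive differences of the family, those of PP2C68 and PP2C09. Of the 10 rice genes that carry a clade A number, 7 were measured. Of these, 6 (85.7%) were higher in −N in all 3 replicate pairs, against 45.8% of the other 48 phosphatases and 26.5% of all genes. The median log2 ratio was 0.57 for the 7 genes, 0.18 for the other 48 phosphatases and 0.03 over all genes. Leaving out 1 array moved the clade median between 0.40, without −N replicate 2, and 0.92, without −N replicate 1. None of the 7 passed in limma over all genes or with the block. At an unadjusted p under 0.05, 3 of the 7 were higher, against 8.33% of the other 48 phosphatases and 2.17% of all genes. With the block 5 were higher, against 33.3% and 12.8%. PP2C68 (gene ID 4346736), also listed as SIPP2C1, was picked by the study from these arrays. The study reported it as higher in −N by quantitative RT-PCR too, which is not analysed here. Its intensities were 118, 207 and 243 in −N replicates 1, 2 and 3, and 65.0, 62.1 and 102 in +N replicates 1, 2 and 3. Its groups did not overlap, with every −N array the higher, as in 3.98% of all genes. Its mean was 189 ± 64.4 in −N and 76.5 ± 22.5 in +N (SD, n = 3 each), a log2 ratio of 1.28 ± 0.34 (SE, adjusted p = 0.450, and 0.0690 with the block). The change was 1.81-fold, 3.34-fold and 2.37-fold in replicate pairs 1, 2 and 3.

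PP2C09 (gene ID 4327465) had the next largest difference upwards and, relative to its mean, the smallest spread of the members in +N. Its intensities were 414, 563 and 588 in −N, and 274, 269.8 and 273 in +N. The +N arrays were almost equal while −N replicate 1 was nearest to them, and the groups did not overlap. The log2 ratio was 0.92 ± 0.22 (SE, adjusted p = 0.405, and 0.0765 with the block). PP2C06 (gene ID 4324201), which is also named ABIL1 after the ABI phosphatases of Arabidopsis, had intensities of 421, 855 and 669 in −N, and 312, 361 and 415 in +N. Replicate 1 was the lowest in both groups, and the lowest −N value was just above the highest +N value. Its log2 ratio was 0.79 ± 0.30 (SE, adjusted p = 0.791, and 0.119 with the block).

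The other clade A genes had smaller differences, and their groups overlapped. PP2C30 (gene ID 4332374) encodes a phosphatase known to bind a rice PYL receptor. Its intensities were 38.8, 80.4 and 82.1 in −N, and 34.5, 60.9 and 37.7 in +N. Most of its log2 ratio of 0.57 ± 0.36 (SE, adjusted p = 1) came from replicate 3, with 2.18-fold, against 1.13-fold and 1.32-fold in pairs 1 and 2. With the block its adjusted p was 0.206. PP2C08 (gene ID 4324182) had intensities of 121, 204 and 147 in −N, and 87.6, 135 and 116 in +N. The pairs were alike, at 1.38-fold, 1.52-fold and 1.26-fold, and the log2 ratio was 0.47 ± 0.28 (SE, adjusted p = 1, and 0.118 with the block). PP2C53 (gene ID 4339797), or ABIL2, had intensities of 164, 353 and 261 in −N, and 159.5, 240.4 and 207 in +N. In replicate 1 the treatments were within 1.03-fold of each other, and the log2 ratio was 0.31 ± 0.32 (SE, adjusted p = 1). It was 0.05 without −N replicate 2, 0.15 without +N replicate 1 and 0.61 without −N replicate 1. PP2C51 (gene ID 4339671), a phosphatase gene known from seed germination, was dim, at 14.8, 12.7 and 15.3 in −N, and 16.7, 11.4 and 18.5 in +N. It was the single clade A gene with mixed pairs and had a log2 ratio of −0.10 ± 0.25 (SE, adjusted p = 1).

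**Figure D3:**
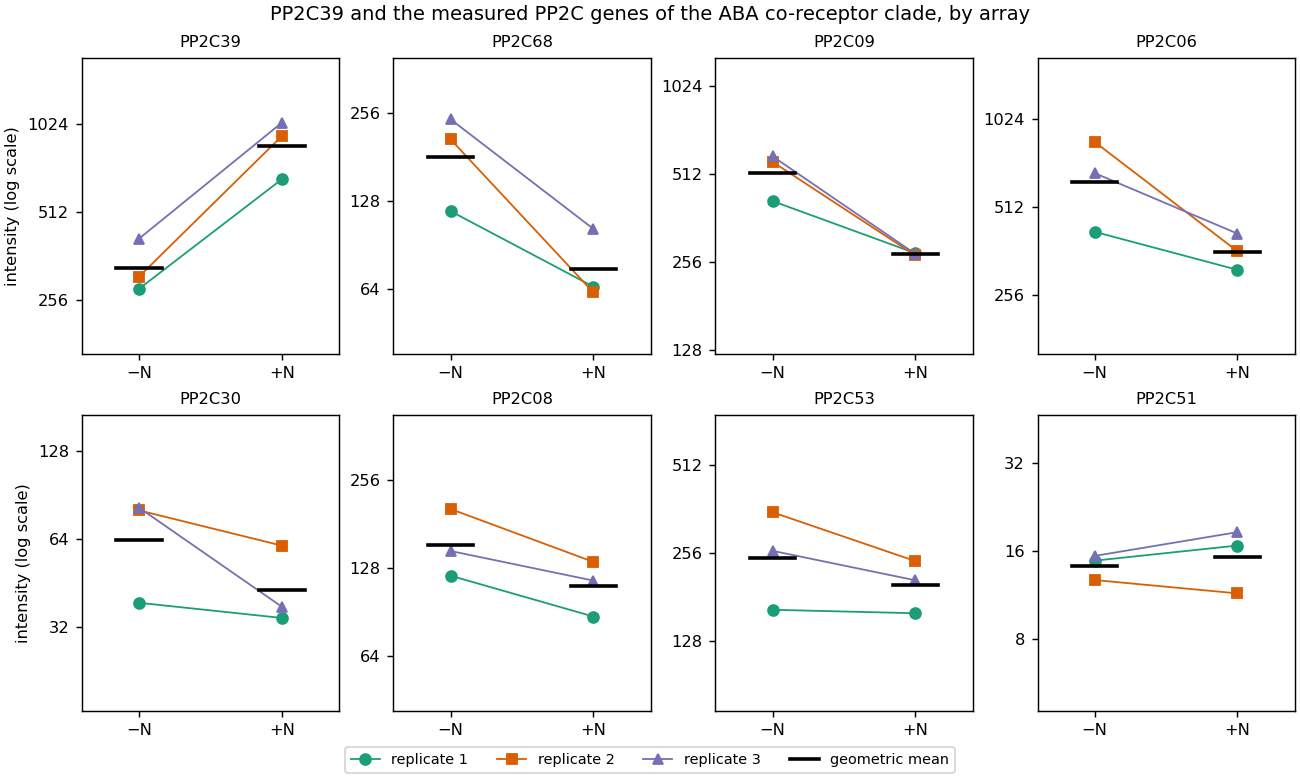
Intensity (y axis, log scale, a panel per gene) in −N and +N of PP2C39 and of the 7 measured clade A PP2C genes, with lines joining arrays of the same replicate number and black bars at the geometric mean of 3 arrays. PP2C39 is lower in −N on all lines, and 6 of the clade A genes are higher in −N on all lines, with PP2C51 between 11.4 and 18.5 on all arrays.

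PP2C39 (gene ID 9271405) had the largest difference downwards of the 55 measured phosphatase genes. The study picked it from these arrays and reported it as lower in −N by quantitative RT-PCR too. Its intensities were 280.0, 308 and 416 in −N, and 663, 932 and 1035 in +N. Every −N array lay below every +N array, as in 5.32% of all genes, and replicate 1 was the lowest in both groups. The mean was 335 ± 71.5 in −N and 877 ± 192 in +N (SD, n = 3 each), a log2 ratio of −1.39 ± 0.26 (SE, adjusted p = 0.259). With the block it fell at an adjusted p of 0.0265 (SE 0.11), and −N was at 0.422, 0.331 and 0.401 times +N in pairs 1, 2 and 3. The blocked call was kept without replicate 1 of both groups (adjusted p = 0.0410) and was lost without replicate 2 (0.142) or replicate 3 (0.200). A second, dimmer probe set of the gene had intensities of 35.1, 39.9 and 38.2 in −N, and 86.1, 118 and 88.2 in +N. Its log2 ratio of −1.36 was close to that of the brighter one, whose name ends in s_at, a suffix for probes that can match several transcripts. None of the other 54 measured phosphatase genes was below −0.51.

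Beside the clade A genes, 4 phosphatase genes had an unadjusted p under 0.05 and were higher in −N in all 3 replicate pairs. PP2C78 (gene ID 4352638) had intensities of 158, 346 and 289 in −N, and 117, 153 and 142 in +N. The groups did not overlap, with −N replicate 1 only just above the highest +N array, and the log2 ratio was 0.88 ± 0.32 (SE, adjusted p = 0.756). PP2C71 (gene ID 4348468) had intensities of 482, 709 and 400.2 in −N, and 232, 371 and 283 in +N. Here replicate 3 had the smallest difference, and the log2 ratio was 0.83 ± 0.29 (SE, adjusted p = 0.723). The name of this probe set ends in x_at, a suffix for probes that can bind other sequences, and a further probe set of PP2C71 gave 0.91 (SE 0.32). PP2C28 (gene ID 4331548) was among the 5 brightest phosphatase probe sets, with intensities of 1739, 3003 and 2510.4 in −N, and 984, 1538 and 1739 in +N. Its groups overlapped, with −N replicate 1 and +N replicate 3 both at 1739, and the log2 ratio was 0.77 ± 0.31 (SE, adjusted p = 0.840). PP2C34 (gene ID 4334191), also listed as BIPP2C2, had intensities of 283, 464 and 421 in −N, and 212, 272 and 272 in +N. The groups did not overlap, and its log2 ratio was 0.61 ± 0.26 (SE, adjusted p = 0.921). With the block these genes came to adjusted p values of 0.101, 0.0889, 0.0824 and 0.0958, which did not pass.

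Another 3 phosphatases with a known role had positive log2 ratios, and PP2C11, chosen alongside them and given below, had −0.05. All of these were chosen after their values were seen. PP2C13, known as DCW11, was first described from pollen of cytoplasmic male sterile rice. It had intensities of 513, 633 and 799.8 in −N, and 359.7, 495 and 549.8 in +N, and a log2 ratio of 0.47 ± 0.26 (SE, adjusted p = 1). PP2C35 is XB15, which binds the immune receptor kinase XA21 and reduces its signalling. Its intensities were 524, 951 and 879 in −N, and 455, 770.5 and 633 in +N, with a log2 ratio of 0.33 ± 0.31 (SE, adjusted p = 1). Both were higher in −N in all pairs with overlapping groups. PP2C27, known from rice cold signalling, had a log2 ratio of 0.22 ± 0.31 (SE, adjusted p = 1) with mixed pairs.

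The brightest phosphatase probe sets were nearly level between treatments, apart from PP2C28. PP2C12 had intensities of 2944, 3978 and 3594 in −N, and 3136, 4097 and 4838 in +N, a log2 ratio of −0.19 (SE 0.24). PP2C14, PP2C60 and PP2C45 had log2 ratios of 0.19 (SE 0.25), −0.04 (SE 0.28) and −0.10 (SE 0.24). Brightness is not a measure of mRNA amount across probe sets, since each has its own probes. At the other end, PP2C61, PP2C69, PP2C51, PP2C59 and PP2C18 stayed between 6.45 and 31.7 on all arrays, with log2 ratios between −0.25 and 0.28 and mixed pairs. Of 12 phosphatase genes with more than 1 probe set, 4 had probe sets of opposite sign, PP2C14, PP2C48, PP2C66 and PP2C73. In each of these the log2 ratios lay between −0.31 and 0.37 and did not pass the test. The remaining 28 phosphatase genes, PP2C31 among them, had log2 ratios between −0.51 and 0.48, all with an adjusted p of 1, and 14 of them were higher and 5 lower in all 3 replicate pairs.

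No SAPK kinase gene was 1.5-fold higher or lower in −N, where 3.14% of all genes were higher and 4.26% lower. All 10 were measured, each by a single probe set, and their median log2 ratio was 0.16, with 6 positive and 4 negative values. The median was −0.16 without +N replicate 1, against −0.09 for all genes, 0.36 without −N replicate 1, 0.27 without +N replicate 3, 0.04 without −N replicate 2 and 0.01 without −N replicate 3. No kinase gene passed in limma (0.0223% of all genes higher, 0.0838% lower) or with the block (0.212% and 0.408%). None had an unadjusted p under 0.05, against 2.17% of all genes for higher and 3.08% for lower. At that level with the block, 3 were higher, SAPK1, SAPK2 and SAPK7 (12.8% of all genes), and none lower (7.89%). In all 3 replicate pairs, 3 of the 10 were higher (26.5% of all genes) and 2 were lower (17.5%). Every −N array was above every +N array for 2 kinases (3.98% of all genes) and below for 1 (5.32%). The groups of the other 7 overlapped, as did those of 16241 of all 17905 genes. Without the block, the 95% intervals of all 10 log2 ratios held 0, and those of 7 lay within a 2-fold difference in either direction. Those of SAPK5, SAPK7 and SAPK9 reached past 2-fold, but with the block they lay within it, at −0.17 to 0.42 for SAPK5 and −0.12 to 0.56 for SAPK9. With the block, the intervals of SAPK1 (0.24 to 0.75), SAPK2 (0.09 to 0.61) and SAPK7 (0.03 to 0.64) did not hold 0, with adjusted p values of 0.111, 0.161 and 0.213. The difference between the families was not tested.

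SAPK1 and SAPK2, which form a pair within the family and have been linked to salt tolerance, were higher in −N. SAPK1 (gene ID 4333017) had intensities of 710.2, 689 and 921 in −N, and 548, 489 and 603 in +N. The groups did not overlap and the pairs were alike, at 1.30-fold, 1.41-fold and 1.53-fold. Its log2 ratio of 0.49 was the largest of the kinases (SE 0.22, 95% interval −0.01 to 0.99, adjusted p = 0.971). SAPK2 (gene ID 4343944) had intensities of 1167, 1314 and 1426 in −N, and 864, 1149 and 1059 in +N. The lowest −N array was just above the highest +N array, and the log2 ratio was 0.35 ± 0.21 (SE, 95% interval −0.14 to 0.84, adjusted p = 1).

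SAPK3 and SAPK4 went the other way. SAPK3 (gene ID 4349411) had intensities of 2066, 1727 and 1875 in −N, and 2144, 2360.3 and 2398 in +N. The groups did not overlap, with every −N array the lower, and it had a log2 ratio of −0.29 ± 0.19 (SE, 95% interval −0.74 to 0.16, adjusted p = 1). In replicate 1 the treatments were nearly level, with −N at 0.964 times +N. SAPK4 (gene ID 4324934), known for a role in salt tolerance, had intensities of 1216, 1364 and 1377 in −N, and 1263, 1664 and 1805 in +N. Its groups overlapped, and the log2 ratio was −0.24 ± 0.22 (SE, 95% interval −0.75 to 0.26, adjusted p = 1).

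The kinases SAPK8, SAPK9 and SAPK10 are known to be activated by ABA as well as by osmotic stress, and none of them was higher or lower in all 3 pairs. SAPK8 (gene ID 4334218) had intensities of 1173, 1504 and 1378 in −N, and 1105, 1501 and 1590.5 in +N. In pair 2 its arrays were nearly equal, and the log2 ratio was −0.04 ± 0.23 (SE, 95% interval −0.57 to 0.49). SAPK9 (gene ID 4352660) had intensities of 94.0, 231 and 526 in −N, and 98.4, 165 and 444 in +N. Its replicates lay far apart in the same order in both groups. The 95% interval of its log2 ratio of 0.22 ran from −1.44 to 1.88, and from −0.12 to 0.56 with the block. SAPK10 (gene ID 4333435) had intensities of 77.5, 88.2 and 102 in −N, and 52.5, 83.3 and 108 in +N, with a log2 ratio of 0.19 ± 0.30 (SE, 95% interval −0.50 to 0.88).

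SAPK5, SAPK6 and SAPK7 also overlapped between the groups. SAPK7 (gene ID 4335877) was higher in −N in all pairs, at 322, 473 and 529 in −N, and 231, 347 and 502 in +N, a log2 ratio of 0.33 ± 0.33 (SE, 95% interval −0.44 to 1.11). This value was 0.05 without +N replicate 1, 0.19 without −N replicate 3, 0.55 without −N replicate 1 and 0.61 without +N replicate 3. SAPK5 (gene ID 4337502) had intensities of 478, 1198 and 836 in −N, and 506, 961 and 756 in +N. SAPK6 (gene ID 4329630) had intensities of 184, 353 and 290.0 in −N, and 239, 333 and 302 in +N. Both had mixed pairs, with log2 ratios of 0.13 ± 0.39 (SE, 95% interval −0.77 to 1.02) and −0.12 ± 0.29 (SE, 95% interval −0.79 to 0.56).

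**Figure D4:**
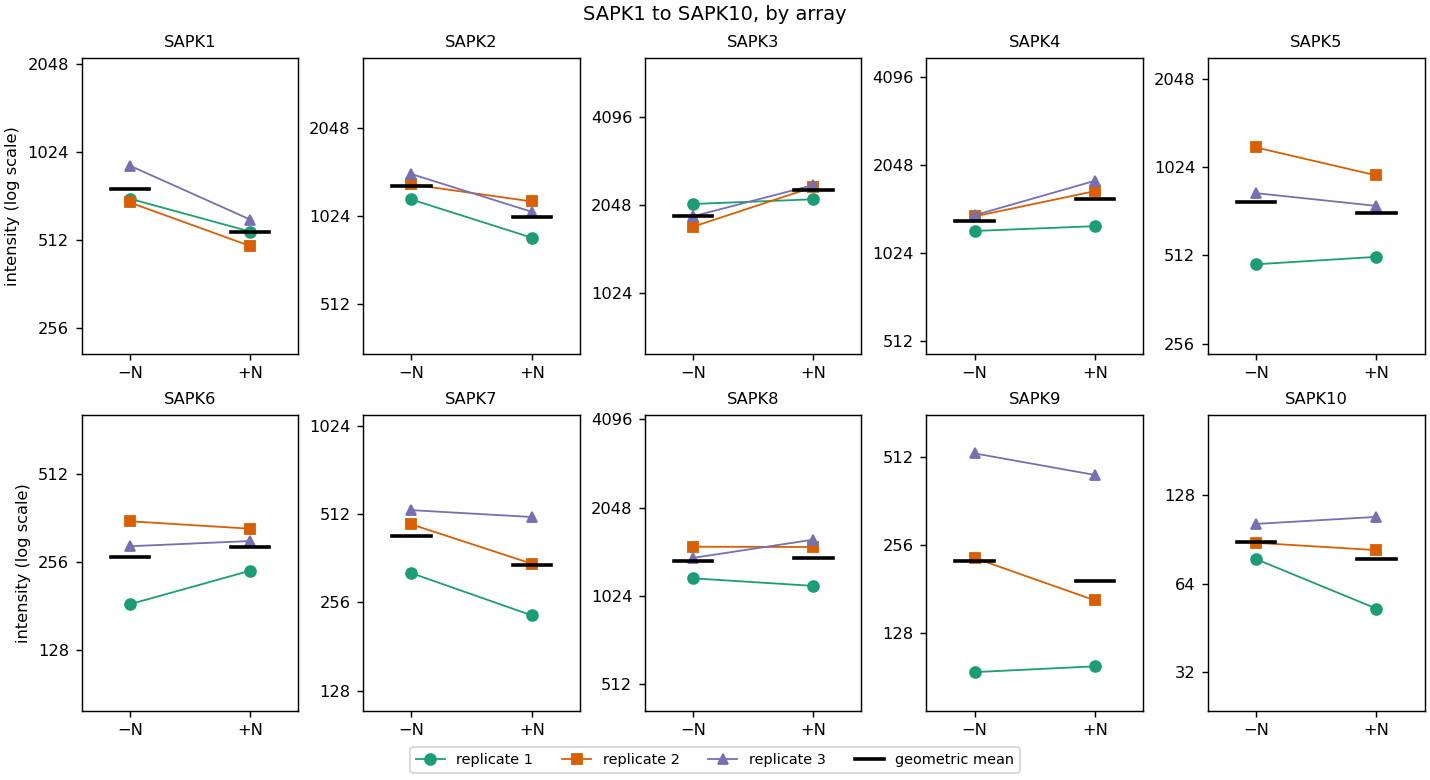
Intensity (y axis, log scale, a panel per gene) of SAPK1 to SAPK10 in −N and +N, with lines joining arrays of the same replicate number and black bars at the geometric mean of 3 arrays. SAPK1, SAPK2 and SAPK7 are higher and SAPK3 and SAPK4 lower in −N on all lines, and SAPK9 differs far more between replicates than between treatments.

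For most members, as for most genes, the replicate means ranged more widely than the treatments differed. A range over several means tends to exceed a single difference of means even without any effect. The counts below therefore do not weigh replicates against treatments. The range of the replicate means of log2 intensity was larger than the log2 ratio in 44 of 55 phosphatase genes (80.0%) and 7 of 10 kinase genes (70.0%), against 87.1% of all genes. Replicate 1 was the lowest in both groups for 42 phosphatase genes (76.4%) and 8 kinase genes (80.0%), against 59.9% of all genes and 71.8% of the genes at or above the median level. SAPK9 had the widest range of the members, 5.02-fold between replicates, and PP2C11 the widest of the phosphatases, 2.55-fold, at 377, 737 and 846 in −N, and 353, 733 and 1019 in +N, with a log2 ratio of −0.05 (SE 0.46). PP2C09, with a range of 1.19-fold, and SAPK3, with 1.05-fold, were among the steadiest. The median SE of a log2 ratio was 0.29 for the phosphatases without the block and 0.11 with it.

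**Figure D5:**
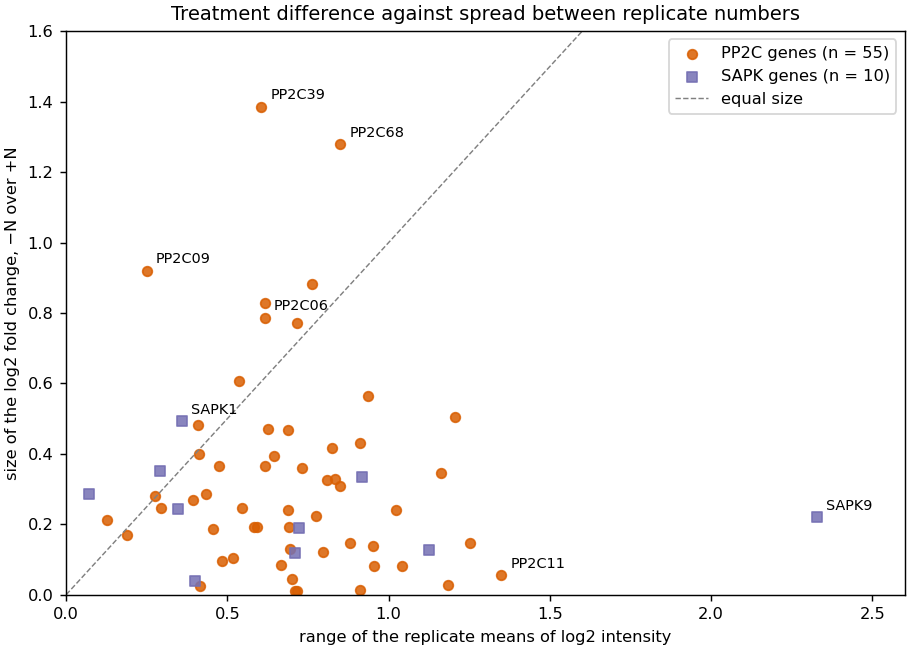
Size of the log2 ratio of −N over +N (y axis) against the range of the replicate means of log2 intensity (x axis) for 55 PP2C and 10 SAPK genes, with the dashed line at equal size. PP2C39, PP2C68 and PP2C09 lie far above the line, and SAPK9 lies farthest to the right.

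Other genes of the ABA pathway were taken from lists by symbol. RCAR5 was the one receptor gene found by name. Its intensities were 662, 1127 and 1038 in −N, and 845, 1242 and 1263 in +N. Its log2 ratio was −0.26 ± 0.29 (SE, adjusted p = 1). RCAR5 was lower in −N in all pairs, with overlapping groups. With the block its interval was −0.51 to −0.01, and its adjusted p of 0.228 did not pass. Of 3 transcription factor genes that act downstream of the kinases or with them, none passed. BZIP23 and TRAB1, both bZIP factors of ABA responses, were higher in −N in all pairs, with log2 ratios of 0.46 (SE 0.33) and 0.31 (SE 0.33), and VP1 was dim and level at 0.00 (SE 0.22). Of 3 measured genes of ABA synthesis and breakdown, ABA8OX2, which encodes an ABA 8′-hydroxylase, passed with the block alone, with intensities of 146, 164 and 105 in −N, and 67.6, 84.8 and 48.1 in +N (log2 ratio 1.06, SE 0.29, adjusted p = 0.480, and 0.0324 with the block). The study picked it from these arrays and reported it as higher in −N by quantitative RT-PCR too. The other measured genes of that list were ZEP1, with a log2 ratio of −0.34 (SE 0.27) and mixed pairs, and ABA8OX1, with 0.16 (SE 0.54). Neither passed. Of 8 genes known to respond to ABA, all had positive log2 ratios (55.7% of all genes), with a median of 1.31. SALT was level at 0.01 and RAB25, dim at 6.44 to 17.3, was at 0.18, both with mixed pairs. Higher at an unadjusted p under 0.05 were 4 (2.17% of all genes), and none passed in limma or with the block. RAB21, RAB16B, RAB16C and RAB16D of this list are of the same family and need not vary independently. The dehydrin gene RAB21 had intensities of 101, 119.7 and 348 in −N, and 50.5, 24.8 and 29.7 in +N (log2 ratio 2.27, SE 0.50, adjusted p = 0.382). LEA3, which encodes a protective protein of late embryogenesis, had 179, 230.4 and 414 in −N, and 97.8, 128 and 58.1 in +N (log2 ratio 1.51, SE 0.40, adjusted p = 0.451). RAB16D and RAB16C, of the same family as RAB21, had values of 1.32 (SE 0.43, adjusted p = 0.636) and 1.30 (SE 0.50, adjusted p = 0.809), the first with replicate 1 nearly level at 233 in −N and 235 in +N. Replicate 3 of −N was the highest array for all 4 genes, and also for PP2C68, PP2C09 and PP2C30. PP2C06, PP2C08, PP2C53, PP2C28, PP2C34, PP2C71 and PP2C78 were highest in −N replicate 2.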

How the data were processed

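Total RNA of roots was measured on 6 single-colour GeneChip Rice Genome Arrays, 3 in −N and 3 in +N, grouped and numbered by sample titles. The authors deposited linear intensity values, a single value for each probe set on each array. GCOS and RMA are named in the processing notes of the submitters, without versions or order. Of 57381 probe sets, 187 controls were left out, 22436 carried 1 gene, 95 several and 34850 none. Intensities were taken to log2 without a pseudocount or a filter on dim probe sets. For each of 17905 genes the probe set of highest mean log2 intensity was used. Names came from the RefSeq gene table of assembly ASM3414082v1, in which all 17905 were found.

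Two-sided tests of −N against +N used limma 3.58.1 (lmFit, eBayes) under R 4.3.3. P values were adjusted over all genes by Benjamini-Hochberg, with a threshold of 0.05. Intervals are 95% intervals from the same fit. Log2 fold changes are −N over +N. The check of the replicate numbers gave correlations of 0.785, 0.664 and 0.653 for arrays of the same number and −0.547 to 0.0846 for others, so the numbers pair the arrays. The pairing rests on these correlations, as no label says what a number marks. Blocked values are given where they change an adjusted call or a count for the phosphatases or kinases, and for some single genes. The fit was tested on simulated data. A comparison of protein and promoter sequences that had been planned was not run, since no sequences were used here.

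The members and lists were chosen with earlier results of these data known. Named singly were PP2C68, PP2C39, all SAPKs, the clade A phosphatases by number, every PP2C with an unadjusted p under 0.05 or at least 1.5-fold apart, the 5 brightest and 5 dimmest PP2Cs, members whose probe sets disagree in sign, and, of other ABA genes, up to 4 per list with an unadjusted p under 0.05. PP2C11, PP2C13, PP2C27, PP2C31, PP2C35 and the other ABA genes named were chosen after their values were seen. Alternatives were the block, quantile normalization, median centring, the mean of all probe sets of a gene, genes at or above the median level, log2 of intensity plus 16, eBayes with trend and robust settings, and leaving out each array. The block with quantile normalization, and the block without both arrays of a number, were added after seeing the data.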

Additional observations from a re-analysis of the deposited data

How the results depend on the processing

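Of 37 phosphatase and kinase genes named (without PP2C31), 24 kept the sign of their log2 ratio of −N to +N in all 17 alternatives, among them PP2C39 (−1.57 to −1.25), PP2C68 (1.05 to 1.59), PP2C09 (0.83 to 1.09) and SAPK1 to SAPK4. PP2C39 passed with the replicate block (−1.39, the 1 phosphatase called), with the block and quantile normalization (−1.39, 1 called) and with the block without replicate 1 of both groups (−1.46, 1 called), and its adjusted p ran from 0.0265 to 0.892 over all alternatives. The replicate block changed no other call of a member. Phosphatase genes with an unadjusted p under 0.05 numbered 21 higher and 2 lower with the block, 20 and 3 with the block and quantile normalization, and 22 and 2, 16 and 3, and 12 and 2 with the block without replicates 1, 2 and 3 in turn. Leaving out 1 array gave 2 to 13 higher. Kinase genes at that level numbered 3 higher with the block and 2 in each of the other blocked fits, with 2 lower where replicate 1 was left out. They numbered 1 higher after quantile normalization, with 16 added to the intensity, with the mean of all probe sets and over genes at or above the median level. The kinase median was 0.043 over genes at or above the median level, where 8 kinases remained, and 0.060 with the block without replicate 2. Leaving out 1 array moved it between −0.16 and 0.36, and the phosphatase median between 0.076 and 0.38. The phosphatase median minus that of all genes stayed between 0.12 and 0.21 in all alternatives. Over all genes, the adjusted calls were 2 higher and 22 lower after quantile normalization (8.33% higher, against 21.1%), 2 and 17 over genes at or above the median level, 5 and 23 with trend and robust settings, 38 and 73 with the block, 12 and 40 with the block and quantile normalization, 63 and 44 with the block without replicate 1, and 0 and 0 with the block without replicate 2 (2546 genes at an unadjusted p under 0.05) or 3 (2210). Leaving out 1 array gave 0 to 10 higher and 0 to 14 lower in limma, while 615 to 1402 genes then had an unadjusted p under 0.05. The members that changed sign had log2 ratios between −0.19 and 0.22. PP2C73 was at 0.0045 with 16 added, at 0.12 with the mean of all probe sets, at 0.011 after quantile normalization with and without the block, and at 0.12 with the block without replicate 3. With the block without replicate 3, PP2C11 was at 0.052, PP2C69 at −0.041 and SAPK8 at 0.044, and without replicate 1, PP2C69 was at −0.034 and SAPK6 at 0.012. Leaving out 1 array gave ranges of −0.49 to 0.30 for PP2C11, −0.26 to 0.028 for PP2C45, −0.30 to 0.045 for PP2C51, −0.23 to 0.16 for PP2C60, −0.35 to 0.11 for PP2C61, −0.24 to 0.46 for PP2C66, −0.23 to 0.20 for PP2C69 and −0.24 to 0.35 for PP2C73. For the kinases these were −0.18 to 0.48 for SAPK5, −0.32 to 0.15 for SAPK6, −0.20 to 0.062 for SAPK8, −0.39 to 0.85 for SAPK9 and −0.10 to 0.42 for SAPK10. The cause of these moves was not tested. With 3 arrays in a group, the median SE of a phosphatase was 0.29 without the block and 0.11 with it, and dim probe sets such as those of PP2C61 and PP2C69 come without a detection call here. The planned comparisons of protein sequences and of promoter letters were not run.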
